A study of Mus musculus with 11 samples.

Results

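The immunoglobulin genes and the joining chain gene Jchain were followed across 11 CAGE libraries of mouse cerebral cortex. A row of the expression table was taken as a member if its symbol named a heavy, kappa or lambda immunoglobulin segment or Jchain, and if it reached 0.25 CPM (tag counts scaled to the library total, the unit of the deposited table) in some library. The symbol alone matched 91 rows, and 85 of the 22377 genes in the table also reached the threshold. They comprised 31 heavy chain V segments, 36 kappa V segments, 2 lambda V segments, 6 heavy chain C, D and J rows, 9 light chain C and J rows, and Jchain. Some neighbouring rows held identical values in every library, since the same tags had been given to each: Ighj1 with Ighd4-1, Igkj1 with Igkj2 and Igkj3, Iglc2 with Iglj2, and Iglj3 with Iglj3p. With each such group counted once, 80 members remained. Beyond these equal rows, the tags of Ighj2 equalled those of Ighj1 and Ighj4 together in every library. The choice rested on measured levels, so the levels themselves are given as a description.

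CAGE sequences the capped 5′ ends of transcripts, and a tag count is therefore not scaled by gene length. Male C57BL/6N mice received a focal cortical stroke by photothrombosis, in which light closes vessels after rose bengal injection. The infarcted and the non-infarcted side were profiled at 7 days without and with levetiracetam (LEV, an anti-seizure drug), at 1 month without and with LEV, and at 2 months after a LEV withdrawal labelled as 2 weeks, and a naive cortex was profiled as well. These are 11 groups with 1 library each. The design text gives LEV as 5 mg/mL in drinking water from 1 month after stroke for 2 weeks with a withdrawal of 1 week, which differs from the sample labels followed here. It gives mouse ages of 8 to 10 and 65 to 85 weeks for the series as a whole. Neither the number of mice in a library nor whether both sides came from the same animal is stated. Libraries held 12928291 (naive) to 21000367 tags (non-infarcted side at 1 month with LEV), so that 3 tags corresponded to 0.143 to 0.232 CPM. Markers of cortical neurons summed to between 3176 and 5057 CPM in every library, while the choroid plexus list stood apart in the naive library (361.0 CPM) and the non-infarcted 1-month LEV library (203.3 CPM) against 14.1 to 31.3 CPM elsewhere.

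An antibody gene is assembled in B cells by joining a V segment to J (and, in the heavy chain, D) segments beside a constant region. Its mRNA starts at the promoter of the V segment that was joined, so a 5′-end assay places antibody transcripts in the rows of V segments rather than in those of the constant regions. Plasma cells, the antibody-secreting descendants of B cells, make these transcripts in very large amounts. Jchain is a small secreted protein that links antibody units into IgM pentamers and IgA dimers. Healthy brain tissue holds few B lineage cells, most of them at its borders, and B cells and plasma cells are known to enter the brain after stroke.

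The V segments that held the most tags over all libraries begin their coding sequences as follows. The first 60 coding bases are shown because the tags at the 5′ end of an antibody transcript fall just ahead of them, and because related V segments can be hard to tell apart. The start codon is in capitals, and the sequences come from the GENCODE M21 transcripts on GRCm38.
Igkv3-4: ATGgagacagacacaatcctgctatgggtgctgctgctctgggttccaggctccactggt
Ighv4-1: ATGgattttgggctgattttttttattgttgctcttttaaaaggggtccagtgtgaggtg
Igkv4-57: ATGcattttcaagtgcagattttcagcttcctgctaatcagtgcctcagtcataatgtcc
Igkv4-61: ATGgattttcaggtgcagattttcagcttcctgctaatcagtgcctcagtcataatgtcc
Ighv10-3: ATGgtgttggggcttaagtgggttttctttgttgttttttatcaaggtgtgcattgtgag
Igkv6-15: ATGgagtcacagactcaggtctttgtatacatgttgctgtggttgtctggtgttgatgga

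The 2 Igkv4 sequences shared 58 of 60 bases. Over the whole coding sequence, Ighv4-1 was the most distinct of the 6, with its closest relative (Ighv11-2) 76.9% identical. The other 5 had a relative at 94.2% to 96.9% identity: Igkv3-3 for Igkv3-4, Igkv4-55 for Igkv4-57, Igkv4-54 for Igkv4-61, Ighv10-1 for Ighv10-3 and Igkv6-23 for Igkv6-15. Tags of those 5 could have been divided between the copies by the upstream mapping, and their values are uncertain to that extent. Igkv3-3, Igkv4-54 and Ighv10-1 had no row of their own, so a division cannot be seen for them. Ighv4-1 lies on chromosome 12 (113948282 to 113948796) and Ighv10-3 further along it (114523441 to 114523905), both on the minus strand. The kappa segments lie on chromosome 6: Igkv4-61 from 69416893 to 69417455, Igkv4-57 from 69575975 to 69576500 and Igkv6-15 from 70406469 to 70406992 on the minus strand, and Igkv3-4 from 70671788 to 70672377 on the plus strand. Each is annotated as an immunoglobulin V gene.

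V segment tags were concentrated in 1 library, the infarcted side at 2 months. The 69 V members together held 3384 tags there, or 192.9 CPM with an exact Poisson 95% interval of 186.4 to 199.5 CPM that covers counting error only, as do all intervals below. The naive cortex held 17 tags (1.31 CPM). At 7 days the sum was 3.13 CPM on the infarcted and 5.11 CPM on the non-infarcted side, and with LEV it was 1.10 and 1.22 CPM. The other 10 libraries thus lay between 0.799 and 5.22 CPM, with the lowest value on the non-infarcted side at 1 month. At 1 month the infarcted side held 5.17 CPM without LEV and 4.79 CPM with LEV, and the corresponding non-infarcted sides held 0.799 and 1.24 CPM. The non-infarcted side at 2 months held 5.22 CPM, close to the infarcted side at 1 month.

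**Figure D1:**
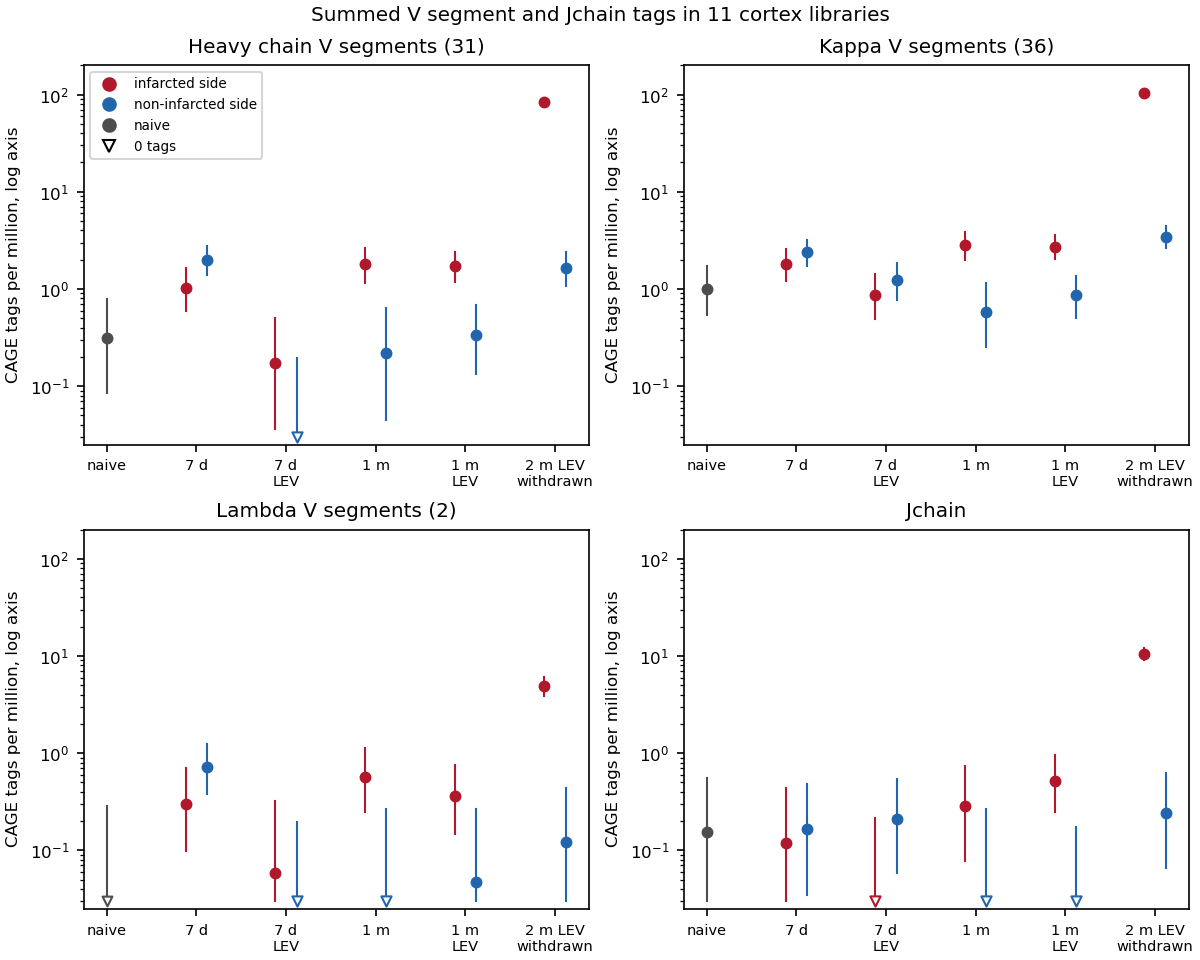
Summed CAGE tags in CPM (log axis) of heavy chain, kappa and lambda V segments and of Jchain in the naive library (grey) and on the infarcted (red) and non-infarcted (blue) side in 5 states, with exact Poisson 95% intervals as vertical lines that are cut at the lower edge. Open triangles mark 0 tags. The infarcted 2-month library stands above all 10 others in every panel.

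The ratio of the infarcted to the non-infarcted side for the V sum was 0.613 at 7 days (95% interval 0.427 to 0.870), 0.900 at 7 days with LEV (0.464 to 1.73), 6.47 at 1 month (3.41 to 13.5), 3.87 at 1 month with LEV (2.48 to 6.23) and 36.9 at 2 months (29.8 to 46.3). The infarcted side thus held fewer V tags than the other side at 7 days without LEV and more at 1 and 2 months. The 2-month infarcted library exceeded the infarcted side at 1 month 37.3-fold (29.5 to 47.8), the same side at 1 month with LEV 40.3-fold (32.7 to 50.1), and the naive cortex 146.7-fold (91.5 to 252.1). All 3 chain types took part: at 2 months the sides differed 51.7-fold for heavy chain V tags (1486 against 27 tags), 29.8-fold for kappa (1812 against 57) and 40.4-fold for lambda (86 against 2 tags, interval 10.8 to 338.7). In 1 library of whole cortex, fewer cells of a type and less RNA per cell cannot be told apart, and with 1 library a group none of these ratios has a replicate check.

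Jchain was likewise highest on the infarcted side at 2 months. Its row held 2 tags in the naive library (0.155 CPM). It held 2 and 3 tags on the infarcted and non-infarcted side at 7 days (0.121 and 0.167 CPM), 0 and 4 at 7 days with LEV (0 and 0.213 CPM), 4 and 0 at 1 month (0.287 and 0 CPM), and 10 and 0 at 1 month with LEV (0.521 and 0 CPM). At 2 months it held 184 tags on the infarcted (10.5 CPM) and 4 on the non-infarcted side (0.243 CPM), a ratio of 43.2 (16.6 to 160.2). Only the infarcted 2-month library was above 1 CPM. In the libraries with 0 Jchain tags the Poisson interval reached up to between 0.176 and 0.268 CPM, so a level up to there is not excluded. In the annotation Jchain is a protein-coding gene on the minus strand of chromosome 5 (88519809 to 88527891).

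Of the 85 members, 82 had their highest level in the infarcted 2-month library, against 15.8% of the 20923 genes that reached 0.25 CPM in some library. Since 51 of the 85 reached the threshold only in that library, most of this count follows from how the members were chosen. The 3 exceptions were Ighm, the constant region of IgM (highest on the infarcted side at 7 days with LEV), the heavy chain joining segment Ighj4 (non-infarcted side at 7 days) and the heavy chain V segment Ighv1-76 (infarcted side at 1 month with LEV, 8 tags against 6 in the infarcted 2-month library). In the naive library 60 of the 69 V segments held 0 tags. In the infarcted 2-month library 59 of 69 held 10 tags or more, and in the other 10 libraries 2 segments did so anywhere: Igkv3-2 with 20 tags and Ighv1-26 with 11, both on the infarcted side at 1 month with LEV. Just inside the threshold were Ighv14-3 and Ighv1-50 at 0.28 CPM. Just outside were the kappa joining segments Igkj4 and Igkj5 at 0.232 CPM, the heavy chain V segments Ighv1-63 and Ighv5-12 at 0.228 CPM, Iglv3 at 0.156 CPM and Ighv1-22 at 0.057 CPM.

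**Figure D2:**
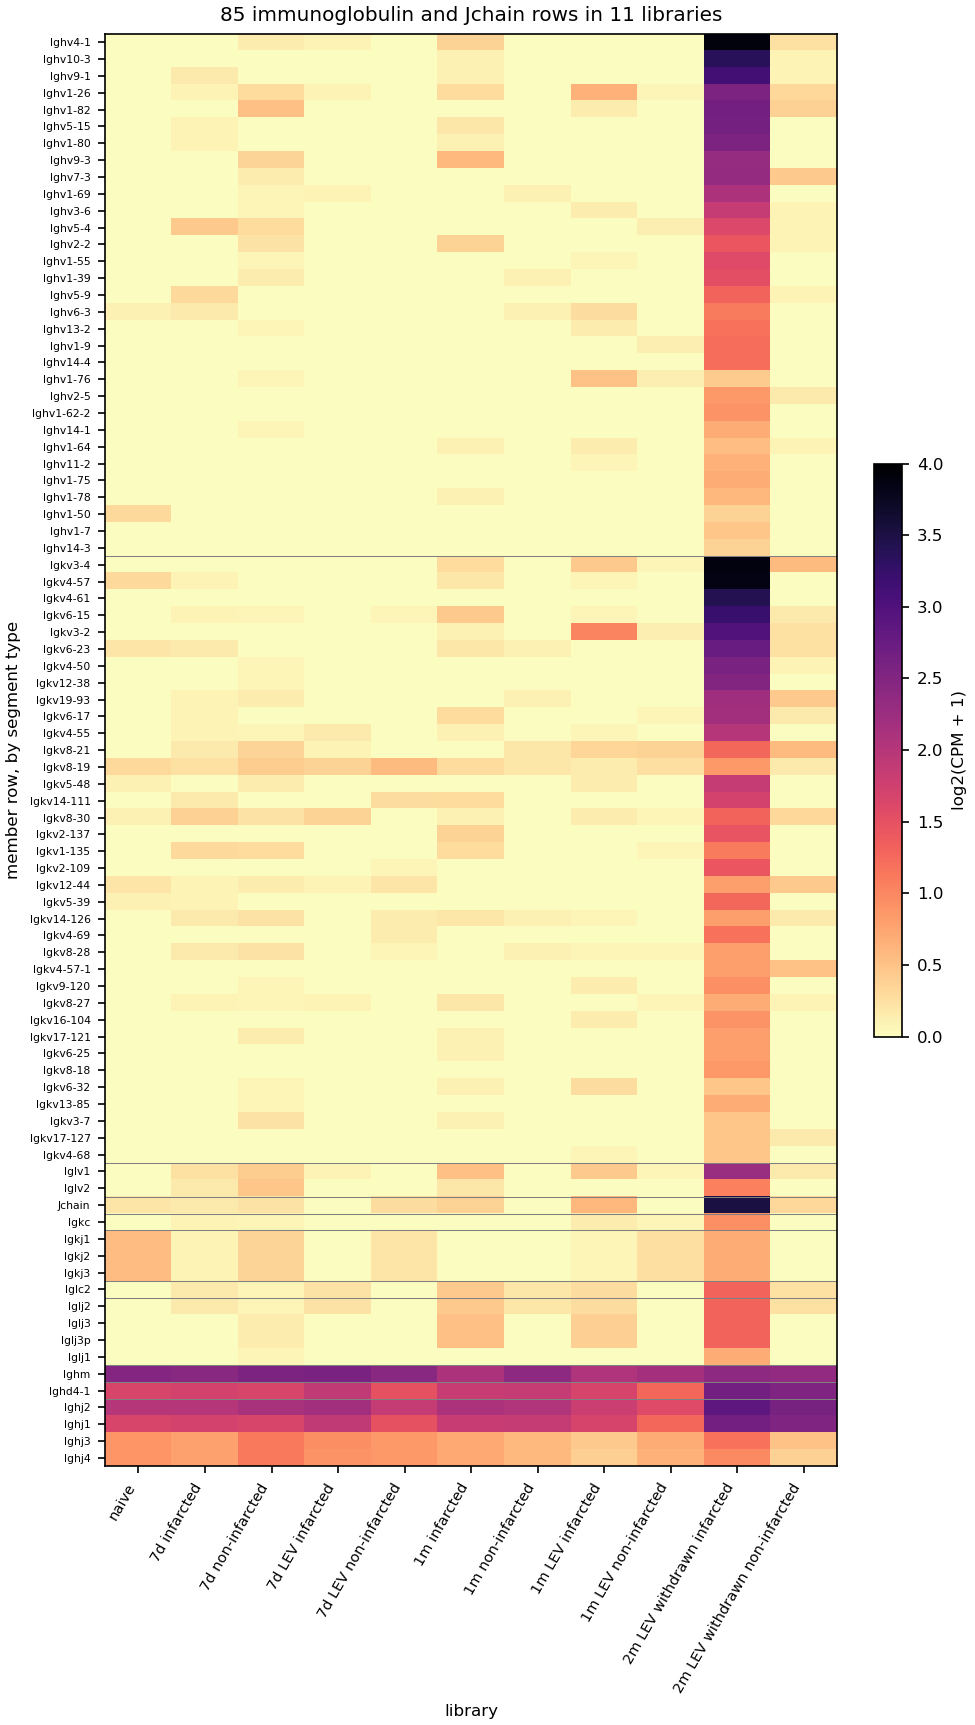
Level of each of the 85 member rows (vertical) in the 11 libraries (horizontal) as log2(CPM + 1), grouped by segment type and ordered by total tags within a type, with the colour scale ending at 4. The infarcted 2-month column is dark over most V rows and Jchain, while the heavy chain C, D and J rows at the bottom are coloured in every library.

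The 6 leading V segments were nearly silent outside that library. Ighv4-1 held 245 tags on the infarcted side at 2 months (13.96 CPM) and 3 tags on the other side. Elsewhere it held 4 tags at 1 month (infarcted), 2 at 7 days (non-infarcted), 1 at 7 days with LEV (infarcted) and 0 in the other 6 libraries. Igkv3-4 held 241 tags on the infarcted side at 2 months (13.74 CPM) and 8 on the other side, a ratio of 28.3 (14.1 to 66.3). Its other tags lay at 1 month, with 3 on the infarcted side without LEV, 7 on the infarcted side with LEV and 1 on the non-infarcted side with LEV, and the naive and all 7-day libraries held 0. Both segments therefore had a few tags on the infarcted side at 1 month, and far more at 2 months.

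Igkv4-57 held 235 tags on the infarcted side at 2 months (13.39 CPM) and 0 on the other side, at least 73.5-fold higher against a floor of 3 tags in the non-infarcted library. It held 3 tags in the naive library, 2 on the infarcted side at 1 month, 1 each on the infarcted side at 7 days and at 1 month with LEV, and 0 elsewhere. Igkv4-61 held 169 tags on the infarcted side at 2 months (9.63 CPM) and 0 in all 10 other libraries, at least 52.9-fold higher than the opposite side against the same floor. Igkv4-61 and Igkv4-57 are the pair whose leader sequences above differ at 2 of 60 bases. Ighv10-3 held 163 tags (9.29 CPM) on the infarcted side at 2 months, 1 tag on the other side, 1 on the infarcted side at 1 month and 0 in the other 8. Igkv6-15 held 145 tags (8.26 CPM) on the infarcted side at 2 months and 2 on the other side, with 5 on the infarcted side at 1 month, 1 tag in each of 4 other libraries and 0 in 4.

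The V tags of the infarcted 2-month library were spread over many segments. The 4 most used made up 26.3% of the V tags, and the 11 most used were needed to reach 50%. Heavy chain segments made up 43.9% of V tags (exact binomial 95% interval 42.2 to 45.6) and kappa segments 53.5% (51.8 to 55.2). Lambda segments were 4.53% of the light chain V tags (3.64 to 5.57). Mouse antibodies are known to use kappa light chains far more than lambda. By family, Ighv1 gave 31.7% of heavy chain V tags over 14 members, Ighv4 16.5% from the single member Ighv4-1, and Ighv9 13.7% over 2 members. Among kappa segments, Igkv4 gave 32.3% over 7 members, Igkv3 20.4% over 3 and Igkv6 18.2% over 5.

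The V members also covered their loci widely. The 31 heavy chain V members stretched over 2.365 Mb of chromosome 12, and the 36 kappa V members over 3.144 Mb of chromosome 6. Kappa V segments occur in both orientations in the genome: 21 members on the minus strand held 64.5% of the kappa tags in the infarcted 2-month library, and 15 on the plus strand held 35.5%. GENCODE M21 lists 113 heavy chain V genes, 100 kappa and 3 lambda V genes. Of these, 34, 36 and 3 had a row in the table, and 31, 36 and 2 were members.

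**Figure D3:**
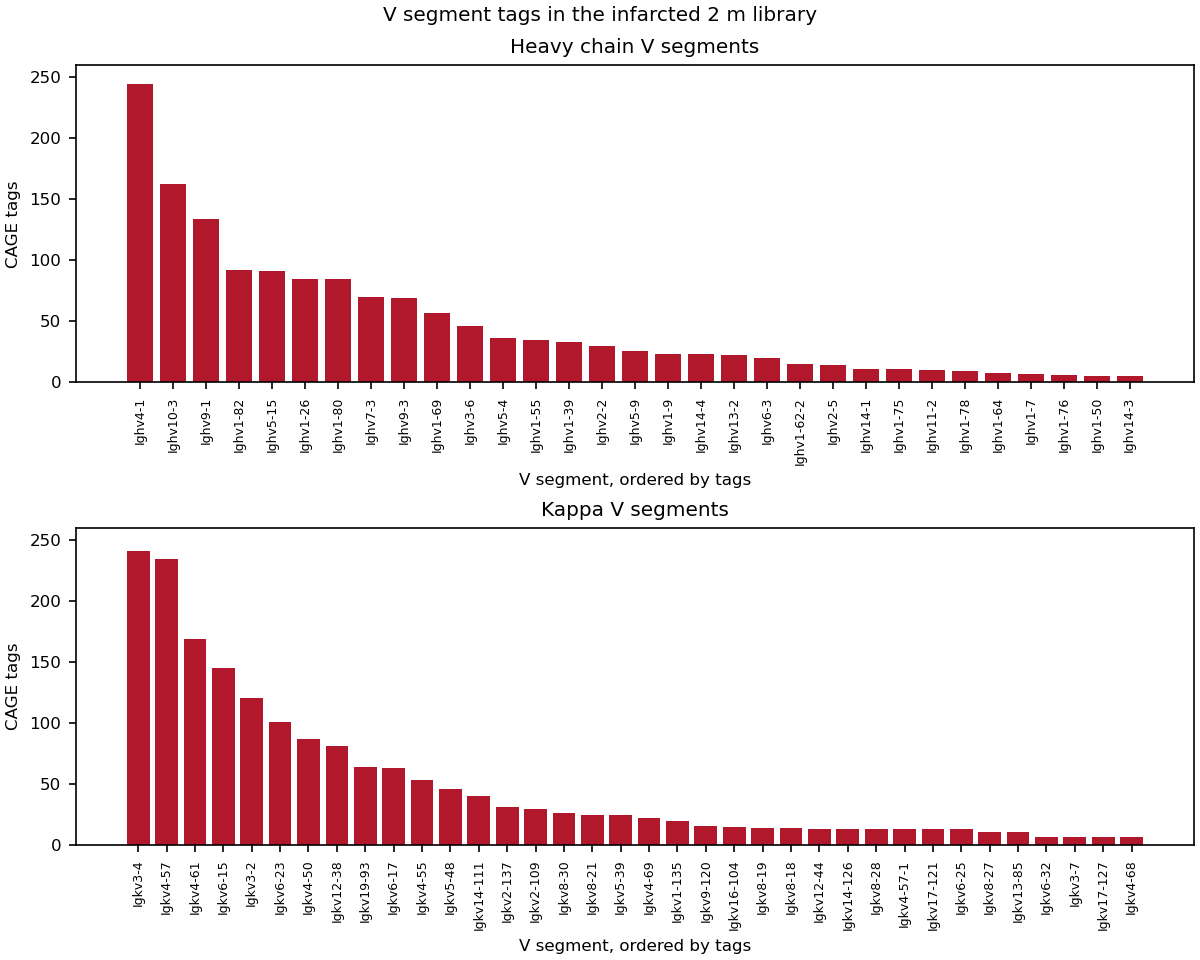
CAGE tags (vertical) of each heavy chain (upper) and kappa (lower) V segment in the infarcted 2-month library, ordered by tags. Ighv4-1 (245 tags) leads the heavy chain, Igkv3-4 (241) and Igkv4-57 (235) lead the kappa chain, and many further segments hold between 5 and 100 tags.

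The smaller V signal of the other libraries was made of other segments in part. On the infarcted side at 1 month with LEV, the 92 V tags were led by Igkv3-2 with 20 tags, Ighv1-26 with 11 and Ighv1-76 with 8. On the infarcted side at 1 month without LEV, the leading segment was Ighv9-3 with 7 of 72 tags. The kappa segment Igkv8-19, picked out after its values were seen, was the V segment with the most tags outside the infarcted 2-month library. It held 3 tags in the naive library, 3 and 6 at 7 days (infarcted and non-infarcted), 5 and 9 at 7 days with LEV, 3 and 2 at 1 month, 2 and 4 at 1 month with LEV, and 14 and 2 at 2 months. Its spread over all 11 libraries differed from that of the leading segments, which had tags almost solely in 1. The 6 Igkv8 members together gave 21.6% of the 490 V tags in the other 10 libraries and 3.04% of the 3384 V tags in the infarcted 2-month library.

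Tags in the heavy chain constant, D and J rows were spread differently from those of the V segments. The 8 heavy chain constant genes of the annotation were represented by 1 row in the table, Ighm, on chromosome 12 (113418558 to 113422730, minus strand). It held 4.56 CPM in the naive library, 4.40 and 4.89 CPM at 7 days on the infarcted and non-infarcted side, 4.93 and 4.36 CPM at 7 days with LEV, 3.23 and 4.21 CPM at 1 month, 3.18 and 3.48 CPM at 1 month with LEV, and 4.22 and 4.13 CPM at 2 months. Ighm thus lay within 3.18 to 4.93 CPM everywhere, the ranges of both sides overlapped, and the infarcted 2-month library did not stand out (ratio between sides 1.02, interval 0.725 to 1.44). As background, unrearranged heavy chain loci also give transcripts that start between the J segments and the constant region and code for no antibody. Which starts gave the Ighm tags cannot be read from a table of genes.

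Of the heavy chain J rows, Ighj2 and Ighj1 had their highest values on both sides at 2 months. They are not separate readings, since in every library the Ighj2 tags equalled those of Ighj1 and Ighj4 together. On the infarcted side at 2 months these were 110, 93 and 17 tags. Ighj2 held 3.02 CPM in the naive library, 3.01 and 3.34 CPM at 7 days (infarcted and non-infarcted), 3.59 and 2.60 CPM at 7 days with LEV, 3.23 and 3.12 CPM at 1 month, 2.50 and 2.00 CPM at 1 month with LEV, and 6.27 and 5.04 CPM at 2 months. The 2-month libraries were the highest on both sides, and they differed from each other less than from the rest (ratio 1.24, interval 0.927 to 1.68). Ighj1, whose tags are those of the D segment Ighd4-1, held 5.30 and 4.73 CPM at 2 months and between 1.43 and 2.72 CPM in the other 9 libraries. Ighj3 held 1.25 CPM on the infarcted and 0.425 CPM on the other side at 2 months, and 0.364 to 1.17 CPM elsewhere. Its tags equalled those of Ighj4 in most libraries and were never fewer, with 11 and 11 in the naive library. On the infarcted side at 2 months Ighj3 held 22 tags and Ighj4 17. The Ighj3 and Ighj4 rows may thus share tags, which was not tested. Summed with equal rows counted once, the heavy chain C, D and J rows reached 18.0 CPM on the infarcted and 14.6 CPM on the non-infarcted side at 2 months. The ratio was 1.23 (1.04 to 1.46), and the other 9 libraries held 8.10 to 13.0 CPM. This sum counts the Ighj1 and Ighj4 tags again through Ighj2, and may count Ighj4 tags once more through Ighj3. Its interval is therefore too narrow even for counting error.

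**Figure D4:**
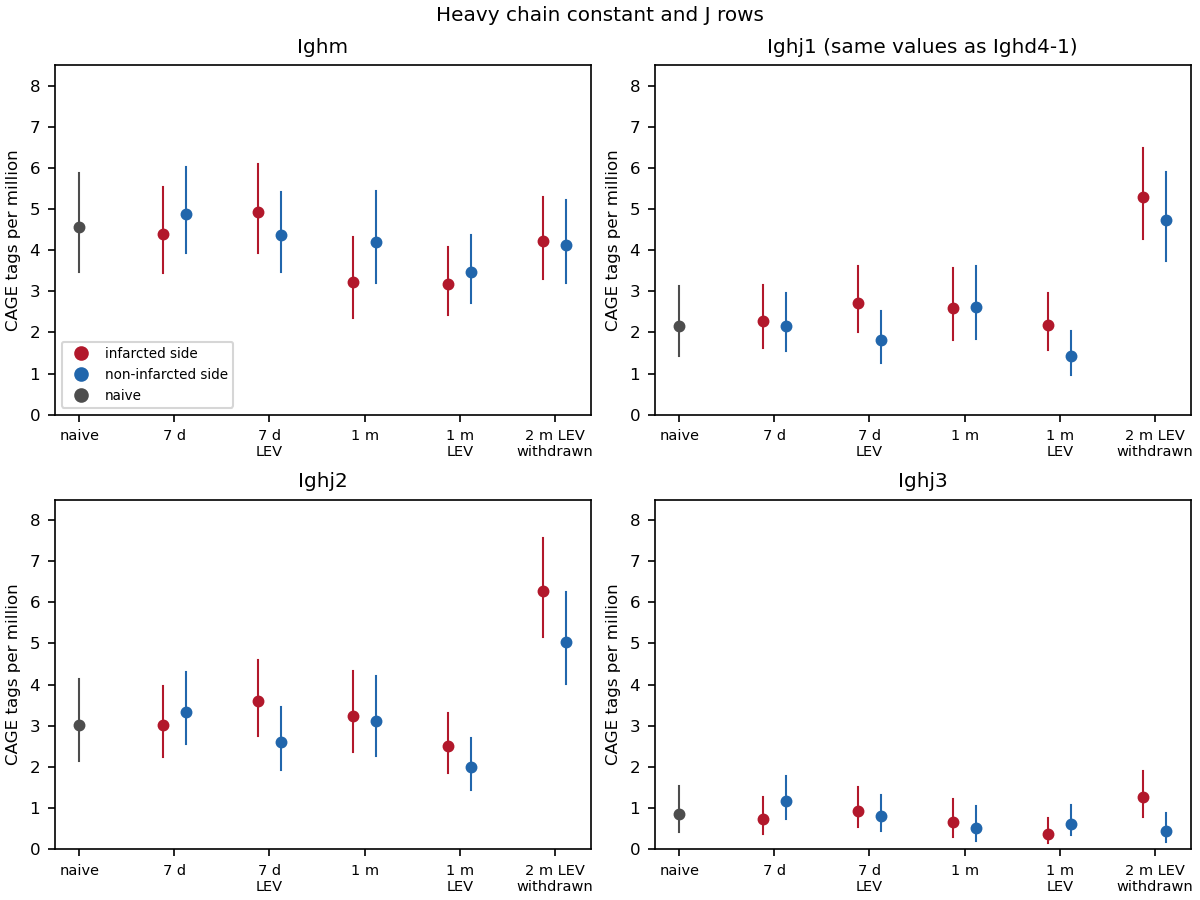
CAGE tags in CPM (linear axis) of the IgM constant region Ighm and the joining segments Ighj1, Ighj2 and Ighj3 in the naive library (grey) and on the infarcted (red) and non-infarcted (blue) side, with exact Poisson 95% intervals. Ighm lies between 3.18 and 4.93 in all 11 libraries, and Ighj1 and Ighj2 are highest on both sides at 2 months. The Ighj2 tags equal those of Ighj1 and Ighj4 together in every library, and the Ighj3 tags are never fewer than those of Ighj4.

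Light chain constant and J rows had few tags and were highest where the V segments were. Igkc, the kappa constant region on chromosome 6 (70726435 to 70726966), held 16 tags on the infarcted side at 2 months (0.912 CPM), 2 tags on the infarcted side at 1 month with LEV, 1 tag in each of 3 libraries and 0 in the other 6. Kappa V segments held 1812 tags in the same infarcted 2-month library. Iglc2, a lambda constant region on chromosome 16 (19198396 to 19200351) whose tags were also given to Iglj2, held 26 tags on the infarcted side at 2 months (1.48 CPM) and 3 on the other side, a ratio of 8.14 (2.49 to 42.0). In the other 9 libraries it held 0 to 5 tags.

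The study design asks whether the sides differ over the states after stroke. In a limma fit on log2(CPM + 1) over the 10 stroke libraries, with the state as a factor and genes at a mean of 1 CPM or more, 8 members were tested and 0 were called at an adjusted p below 0.05, against 7.00% of the 16229 genes tested. At an unadjusted p under 0.05 the count was also 0 of 8. The members that passed the level filter were Jchain, Ighv4-1, Igkv4-57, Igkv3-4, Ighm, Ighj1, Ighd4-1 and Ighj2. The difference of Jchain between the sides was 0.77 on the log2(CPM + 1) scale (SE 0.44, adjusted p = 0.330), that of Igkv3-4 was 0.79 (SE 0.44, adjusted p = 0.318), and that of Ighm was -0.07 (SE 0.10, adjusted p = 0.738). On this scale low values are compressed, and 1 of the 5 states holds nearly all the tags of the V rows and Jchain. Jchain, Ighv4-1, Igkv4-57 and Igkv3-4 passed the level filter only through the infarcted 2-month library. Nothing is therefore read from their differences or p-values.

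The count-based test called V segments that limma did not. The edgeR quasi-likelihood test on recovered tags called 3 of the same 8 members, Igkv3-4 (adjusted p = 0.00266), Igkv4-57 (adjusted p = 0.00565) and Ighv4-1 (adjusted p = 0.0120), against 7.89% of all genes, and Jchain had an adjusted p of 0.0530. These 3 held at most 0.486 CPM in any other library, and Jchain held at most 0.521 CPM. Each passed the mean filter only through the infarcted 2-month library, so nothing is read from the count or from these p-values. With every gene at 0.25 CPM in some library admitted, edgeR called 17 of 85 members higher on the infarcted side, against 6.74% of 20923 genes called higher. That filter is the rule by which the members were chosen, largely through the infarcted 2-month library, and the count is given as a description. Without both 2-month libraries that count was 0 of 85, with 4 at an unadjusted p under 0.05 and 8.78% of genes called. The 17 side calls under the wider filter were thus absent without the 2-month state.

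Within single states, a fold of 4 was used as a description, with levels below 3 tags raised to 3 tags. At 2 months 57 of 85 members were at least 4-fold higher on the infarcted side, where 1.12% of 19506 genes were, but the members had been chosen largely through that library and nothing is read from the count. At 1 month with LEV it was 2 of the 15 members at 0.25 CPM in either library (0.360% of genes), and at 7 days 0 of 17 (2.90%), at 7 days with LEV 0 of 8 (3.48%) and at 1 month 0 of 17 (1.25%). The 2 members at 1 month with LEV, Igkv3-2 and Ighv1-26, reached 0.25 CPM only in the infarcted one of those libraries. Nothing is therefore read from that count either. Igkv3-2 held 20 against 2 tags at 1 month with LEV (ratio 10.9, interval 2.66 to 96.5).

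Time, LEV and the naive cortex were compared on the infarcted side. Between 1 month and 7 days, limma called 0 of 4 members (16.7% of genes called; 0 of 4 at an unadjusted p under 0.05, and edgeR 0 of 4, where it called 14.5% of genes). With LEV against without, it called 0 of 4 (0.518%; again 0 of 4 unadjusted, and edgeR 0 of 4 with 0.104% of genes called). These fits had 1 residual degree of freedom. With genes at 0.25 CPM in some library admitted, edgeR called 3 of 85 members higher at 1 month than at 7 days, against 3.86% of genes called higher, and limma at that filter called 0 of 85. The called rows were Igkv3-2 (adjusted p = 0.0108) and the shared row Iglj3 and Iglj3p (adjusted p = 0.0467). On the infarcted side at 1 month, Igkv3-2 held 20 tags with LEV and 1 without, so nearly all its tags lay in 1 of the 4 libraries fitted. Against the 1 naive library, limma called 0 of 14 members (0.00611% of genes; 0 of 14 unadjusted, and edgeR 0 of 14). The V segments and Jchain among the 14 passed the level filter only through the infarcted 2-month library. Without the 2-month state, 4 members were tested. That library thus set both the entry of these rows and their spread, and the naive group holds 1 library. Nothing is therefore read from the counts against the naive cortex.

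The V sum was lower with LEV than without at 7 days on both sides. The ratio was 0.351 on the infarcted side (0.196 to 0.604, 19 against 52 tags) and 0.239 on the non-infarcted side (0.144 to 0.381, 23 against 92 tags). At 1 month on the infarcted side the LEV ratio was 0.926 (0.673 to 1.28, 92 against 72 tags), and on the non-infarcted side it was 1.55 (0.740 to 3.48, 26 against 11 tags). Each is a comparison of 2 libraries, so that library and drug cannot be told apart. Blood markers, chiefly hemoglobin genes, also differed at 7 days, at 23.0 and 31.5 CPM with LEV and 74.4 and 106.7 CPM without, and their part in the V values was not tested.

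Genes of the B lineage were given by lists chosen with results of these data known. Of the B cell markers, 11 had a row, 4 passed the filter and 3 rose on the infarcted side in limma (median of the 4 was 1.33 on the log2(CPM + 1) scale, against 0.01 over all genes tested). The called genes were Cd22, an inhibitory receptor of B cells (difference 1.44, adjusted p = 0.0222), Cd72 (1.52, adjusted p = 0.0141) and the leukocyte tetraspanin Cd37 (1.22, adjusted p = 0.0132). All 3 were highest on the infarcted side at 7 days without or with LEV, where V tags were few: Cd22 held 4.76 CPM on the infarcted side at 7 days and 1.60 CPM at 2 months. The 11 B cell genes summed to 11.6 to 38.5 CPM on the infarcted side, 8.76 to 11.7 CPM on the other side and 9.28 CPM in the naive library, and all 11 had a tag in the infarcted 2-month library. Microglia and macrophages can also express these genes, and the macrophage and microglia list (8 of 8 called higher) summed to 1278 CPM on the infarcted side at 7 days and 293.9 CPM at 2 months, against 129.5 to 153.8 CPM on the other side and 126.5 CPM in the naive library. The part of those cells in the B cell list was not tested.

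A pair of more specific B lineage genes were too low for the filter and are named after their values were seen. Cd79a, a signalling chain of the B cell receptor, held 59 tags on the infarcted side at 2 months (3.36 CPM), 12 on the infarcted side at 1 month (0.862 CPM) and 0 to 4 tags in the other 9. Mzb1, a chaperone of antibody-secreting cells, held 20 tags on the infarcted side at 2 months (1.14 CPM), 3 on the infarcted side at 7 days and 0 or 1 elsewhere. Both genes had their highest value in the library in which the V segments did, but over the whole lists this held for 5 of the 11 B cell genes and 2 of the 16 plasma cell and antibody secretion genes with a row. Another 5 and 11 of them were highest on the infarcted side at 7 days without or with LEV. Among those were Sdc1, a surface proteoglycan of plasma cells (5.45 CPM on the infarcted side at 7 days with LEV and 1.88 CPM at 2 months), and Prdm1, a transcription factor of plasma cells (2.84 and 1.54 CPM).

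Of the plasma cell and antibody secretion list, 16 genes had a row, 10 were tested and 1 rose, Cd38 (difference 1.29 on the log2(CPM + 1) scale, adjusted p = 0.0151), an enzyme also found on other leukocytes. The median of the 10 was 0.32. Xbp1, a transcription factor of secretory cells, lay between 82.6 and 111.0 CPM in all libraries, with 106.9 CPM on the infarcted side at 2 months. None of the 5 tested genes for antibody gene rearrangement and class switching was called, and the median was 0.05. Among them, the end-joining kinase Prkdc had a difference of 0.05 and the ligase Lig4 -0.20. Neither of the 2 tested octamer factors, Pou2f1 and Pou2f2, which bind V promoters, was called (differences 0.29 and 0.08).

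**Figure D5:**
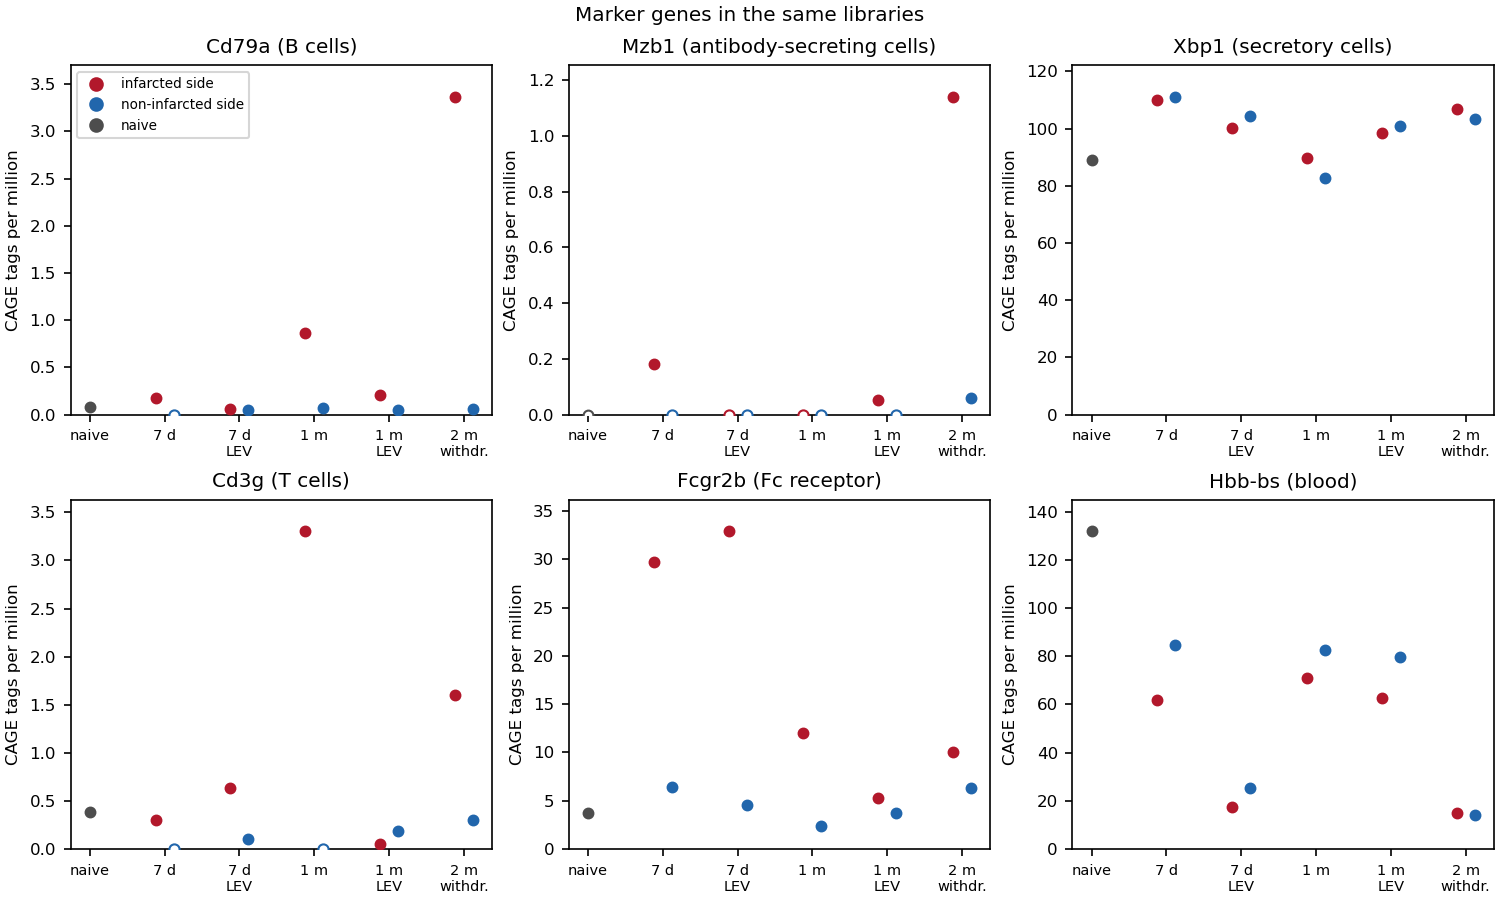
CAGE tags in CPM (linear axes with different ranges) of Cd79a, Mzb1, Xbp1, Cd3g, Fcgr2b and Hbb-bs in the naive library (grey) and on the infarcted (red) and non-infarcted (blue) side, with open points at 0. Cd79a and Mzb1 are highest on the infarcted side at 2 months, Cd3g on the infarcted side at 1 month, Fcgr2b on the infarcted side at 7 days, and the hemoglobin gene Hbb-bs in the naive cortex.

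Receptors for antibodies changed on another schedule. Of 7 tested genes for immunoglobulin receptors and transport, 5 rose on the infarcted side (median of the 7 was 1.35), among them the Fc receptors Fcgr3 (1.34, adjusted p = 0.00742), Fcgr2b (1.52, adjusted p = 0.0218) and Fcgr4 (1.35, adjusted p = 0.0255) and the shared signalling chain Fcer1g (1.89, adjusted p = 0.0105). Fcer1g held 294.0 CPM on the infarcted side at 7 days and 49.5 CPM at 2 months. Of 3 tested genes for B cell recruitment and survival, 2 rose: the chemokine Cxcl12 (0.85, adjusted p = 0.0108) and Tnfsf13, a survival factor for plasma cells (0.70, adjusted p = 0.0262). Cxcl12 held 77.8 CPM on the infarcted side at 2 months and 114.8 CPM there at 7 days. Both of these lists were highest at 7 days, when the V sum was at most 5.11 CPM.

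Lists for other tissue components were read beside the V segments. T cell markers (0 of 2 tested called) summed to 14.9 CPM on the infarcted side at 1 month, their highest, 10.6 CPM at 7 days with LEV and 10.1 CPM at 2 months, and each of the 9 genes had a tag in all 5 infarcted libraries. Blood markers (0 of 2 called) were low at 2 months, 17.8 CPM on the infarcted and 15.7 CPM on the other side, against 157.6 CPM in the naive library, so the library with the most V tags had the second lowest blood sum. Meningeal fibroblast markers (5 of 7 called higher) summed to 207.5 CPM on the infarcted side at 2 months, against 1217 and 1378 CPM on that side at 7 days without and with LEV. Choroid plexus markers (0 of 3 called) summed to 22.5 CPM on the infarcted and 23.3 CPM on the other side at 2 months. The cortical neuron list had 0 of 8 called, with a median of -0.19.

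The genes outside the group with the pattern most like Jchain were ranked by Pearson's r of log2(CPM + 1) over the 11 libraries, among genes with a mean of 1 CPM or more. The 6 highest were C2cd4b (r = 0.912), Fndc9 (0.903), Selenbp1 (0.898), Klf16 (0.892), Sox2 (0.869) and Mgat4b (0.868). Without the infarcted 2-month library these values fell to between 0.137 and 0.630, so the likeness rested largely on that library. Selenbp1 held 10.5 CPM there and 3.43 to 5.89 CPM in the others.

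The V promoters are known for an octamer, ATGCAAAT or ATTTGCAT on the other strand. RefSeq promoter windows on GRCm38.p6, from 250 bases before to 50 after a start, held 1 member, Jchain. The octamer letters occurred in 570 of 32851 windows (1.74%) and not in that of Jchain.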

How the data were processed

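CAGE libraries were made by the authors from total RNA of whole cortex by cap-trapping, per the labels' protocols. The deposited table gives CPM per gene. Per the submitters' processing notes the build was GRCm38 and the tools included HISAT2 2.0.5, BWA 0.7.17 and, with no role given, DESeq2 1.20.0. CPM values were whole multiples of 1 tag in each library (100% within 0.01 tag), and tags were recovered from them. Groups followed the treatment labels, 1 library each. limma 3.58.1 (R 4.3.3) was run with a mean-variance trend on log2(CPM + 1), genes at a mean of 1 CPM or more and Benjamini-Hochberg adjustment over all genes tested; states stood in for replicates of the side contrast (4 residual degrees of freedom), so p-values measure only the spread between these libraries. edgeR 4.0.16 on recovered tags was an alternative, as were a pseudocount of 0.25, other filters and leaving out each state. The scripts were tested on simulated data. Ratios carry exact conditional binomial 95% intervals. Members and gene lists were chosen with earlier results of these data known. Named members were Jchain, every constant region and the 6 V segments with the most tags; listed genes were up to 4 called genes with the smallest p, otherwise the 2 highest. Gene models came from GENCODE M21. No V promoter or protein sequence was used here.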

Additional observations from a re-analysis of the deposited data

Results flagged for a closer look

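The sign of the side difference was opposite at 7 days and at 1 month in both states at each time. At 7 days with LEV the V counts fix no direction (19 against 23 tags, ratio 0.900, interval 0.464 to 1.73). The same holds for Jchain at 7 days, with 2 against 3 tags without LEV and 0 against 4 with LEV. At 1 month without LEV Jchain held 4 against 0 tags, and the interval of its ratio began at 0.653, so no direction is fixed there either. At 1 month with LEV Jchain held 10 against 0 tags, with an interval from 2.45 upwards. For the V sum, infarcted minus non-infarcted was -1.98 CPM at 7 days and -0.122 CPM at 7 days with LEV, and 4.37 CPM at 1 month and 3.55 CPM at 1 month with LEV. For Jchain it was -0.0462 CPM and -0.213 CPM at 7 days without and with LEV, and 0.287 CPM and 0.521 CPM at 1 month, each from at most 10 tags. The difference between the times was not tested.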

How the results depend on the processing

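Depth limits single members: most held fewer than 10 tags in every library but 1, and values of 1 to 3 tags carry wide counting intervals. The count of members called between the sides was 0 with limma, 3 with edgeR on recovered tags and 17 with edgeR at a filter of 0.25 CPM in some library, an alternative added after seeing the data. By time, edgeR at that filter called 3 members, and limma called 0 at its main filter and at this one; between the sides limma at 0.25 CPM likewise called 0 of 85. Igkv3-4, Ighv4-1 and Igkv4-57 passed the threshold in both edgeR fits and not in limma. Counting equal rows once moved the ratio of the summed members at 2 months from 9.37 to 11.2. The cause of the difference between the tools was not tested. The side fit was paired by state, and without the state term, which ends that pairing, 0 of 8 members were called as well. Replicate numbers could pair nothing further, since each group holds 1 library. The remaining 58 of 62 alternatives for counts and summed ratios kept their side of the threshold and, for ratios, their size. Those at a mean of 5 CPM or more tested 0 members, so their count of 0 was fixed beforehand. In many others, V and Jchain rows entered only through the infarcted 2-month library. The tally is therefore given as a description.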
